A study of Oryza sativa Japonica Group with 27 samples.

Results

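The circadian clock genes of rice were followed in Structure-seq2 libraries. They were taken as 10 loci chosen by identifier: LHY (OS08T0157600), the 5 pseudo-response regulators PRR73 (OS03T0284100), PRR37 (OS07T0695100), PRR95 (OS09T0532400), PRR59 (OS11T0157600) and PRR1 (OS02T0618200), GI (OS01T0182600), FKF1 (OS11T0547000) and the ELF3 loci ELF3-1 (OS06T0142600) and ELF3-2 (OS01T0566100). They are 10 of the 35679 loci in the deposited tables and hold 18 of the 42132 transcripts. Structure-seq2 probes RNA folding in living tissue with dimethyl sulfate (DMS), which methylates unpaired bases, and reads the positions at which reverse transcription (RT) stops. The counts per transcript also give a level for each mRNA, and that level is the measure used here. The question was whether genes that peak near dawn and genes that peak near dusk kept the same proportions in every kind of library. RNA sampled at a single time of day would keep them only if the library steps and DMS left relative counts unchanged. All 14 libraries were made from shoots of the japonica cultivar Nipponbare at 14 days of age, grown in soil, after selection of poly(A) RNA.

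The biotin variation, with biotin added and streptavidin in place of polyacrylamide gels (PAGE) after RT and after ligation, had 2 libraries with DMS (+DMS) and 2 without (-DMS). The standard protocol, with PAGE, had 2 libraries +DMS and 2 -DMS. A further 6 kinds had 1 library each, all -DMS and each with a single changed step. These were biotin only (biotin with PAGE), Ex Taq (another PCR enzyme), Circligase (another ligation method), low RT denaturation (65 °C without salt in place of 90 °C with salt), low RT reaction (50 °C in place of 55 °C) and agarose (final purification). The labels do not say whether replicates came from separate plants, and p-values then measure only the spread between these libraries, which may be technical. The hour of harvest is not given in the sources used here. In RNA from whole shoots, fewer cells of a type and less RNA per cell cannot be told apart.

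The plant clock is a loop of repressors that act in turn through the day. LHY, a MYB transcription factor whose mRNA peaks around dawn, represses genes of the evening. The pseudo-response regulators follow it in sequence and repress LHY in turn, first PRR73 and PRR37, then PRR95 and PRR59, and towards dusk PRR1, the rice counterpart of Arabidopsis TOC1. GI and FKF1, which in Arabidopsis act together to read day length, peak in the afternoon and evening, and ELF3 is the scaffold of the evening complex, which in Arabidopsis also holds LUX and ELF4. Rice leaves use this clock to set photosynthesis to the hour and flowering to the season.

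Counts were summed over the transcripts of a locus and over the readings of a library with the standard and the custom sequencing primer, which gave 13 libraries of 9 kinds with 56895 to 878405 counts. Circligase was read with the standard primer only and is given by that reading. Levels are in CPM, the counts relative to a library total scaled by TMM factors, and 1 count was worth 1.25 to 10.7 CPM. The lowest depth was that of the biotin variation -DMS, replicate 1, which stood apart from its replicate. The counts of that pair differed by a chi-square of 11.1 per degree of freedom, against 4.66 for the biotin variation +DMS, 2.34 for the standard protocol +DMS and 2.20 for the standard protocol -DMS. All 6 shoot markers were counted in each library, with 3 Rubisco small subunit loci and Rubisco activase at 2174 CPM or more and the light-harvesting loci at 213 CPM or more. Of the 4 root markers, RCc3 and Lsi2 had 0 counts in all 13 libraries and NRT2.1 had 0 to 2. The root marker Lsi1 had 0 to 17 counts, which came to 33.5 and 36.9 CPM in biotin variation +DMS and to at most 30.6 CPM elsewhere, with 0 in both biotin variation -DMS libraries. A change is called here where the adjusted p of edgeR's quasi-likelihood test was below 0.05 over all loci tested. Of the 10 clock loci, 9 passed the filter of at least 10 counts in at least 2 libraries. ELF3-2 did not.

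**Figure D1:**
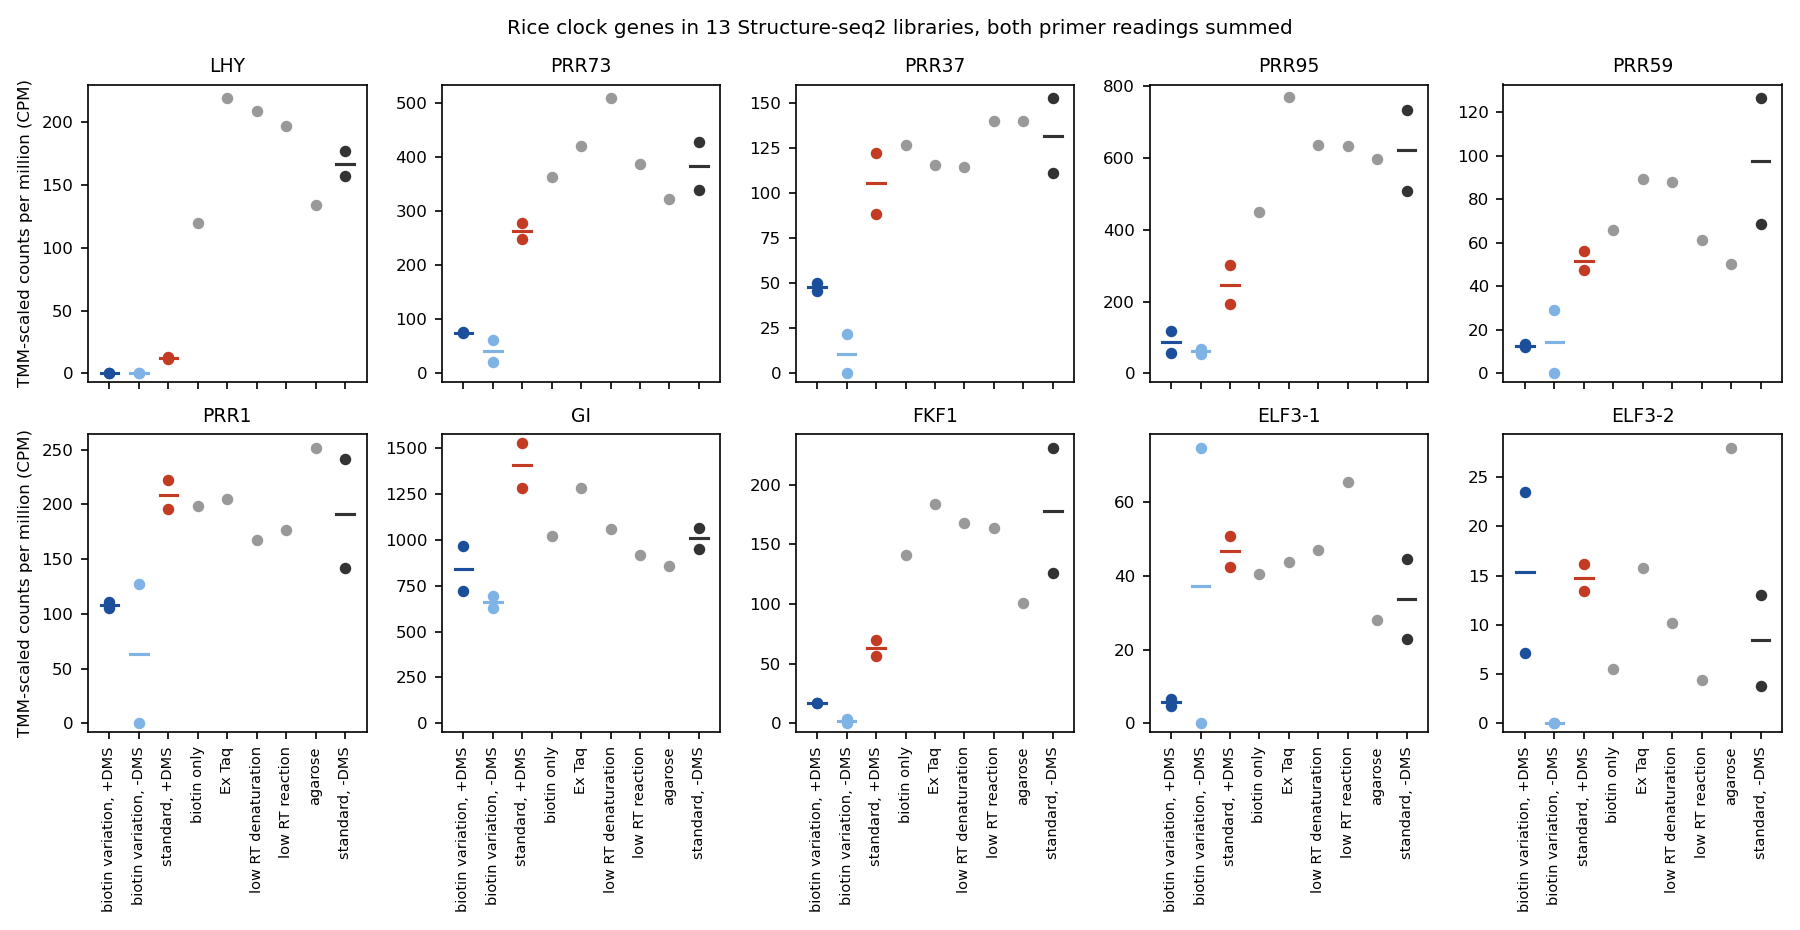
Level of each clock gene in TMM-scaled CPM (y axis, a scale of its own in each panel) in 13 libraries grouped by kind (x axis). Each point is 1 library and each bar the mean of 2 replicates. LHY was at 0 in all 4 biotin variation libraries, at 11.2 and 13.4 CPM in the standard +DMS libraries, and at 119 to 219 CPM in the 7 other libraries.

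LHY, the dawn gene, had under 10 counts in 6 of the 13 libraries and 24 to 125 counts in the other 7. It had 0 counts in all 4 biotin variation libraries, which allows up to 7.17 and 10.1 CPM in the +DMS replicates and up to 32.0 and 10.9 CPM in the -DMS replicates (3 counts in each library). It had 5 and 9 counts in the standard +DMS libraries and 41 and 95 counts in the standard -DMS libraries. In CPM these were 13.4 and 11.2 in standard +DMS and 157 and 177 in standard -DMS. The 5 single libraries read with both primers lay on both sides of the standard -DMS libraries. LHY was at 119 CPM in biotin only, 219 in Ex Taq, 208 in low RT denaturation, 196 in low RT reaction and 134 in agarose. Circligase had 30 counts with the standard primer, 182 CPM by library total alone. The biotin variation and standard +DMS libraries thus lay below all 7 untreated libraries outside the biotin variation. The limits of 3 biotin variation libraries were also below both standard +DMS libraries, but the limit of the shallow one, 32.0 CPM, was above them. The mean in standard +DMS was 12.3 ± 1.54 CPM and in standard -DMS 167 ± 14.0 CPM (SD, n = 2 each), 14.3-fold lower in pooled CPM. With 3 counts over the group as the limit, the biotin variation was at least 27.5-fold lower than the standard protocol over 4 libraries each. The bound was 21.0-fold among the -DMS libraries and 2.85-fold among the +DMS libraries. These bounds take the standard counts as exact, and in standard +DMS those were only 14 counts. The share of LHY among clock counts, given below with its interval, did not separate biotin variation +DMS from standard +DMS.

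PRR73 and PRR37, regulators of the morning phase, had their lowest levels in the biotin variation. PRR73 had 31 and 23 counts in biotin variation +DMS and 2 and 17 in biotin variation -DMS. The standard protocol gave it 93 and 224 counts +DMS, and 89 and 231 -DMS. In CPM PRR73 averaged 75.6 ± 2.14 in biotin variation +DMS, 41.5 ± 28.5 in biotin variation -DMS, 264 ± 21.3 in standard +DMS and 385 ± 63.0 in standard -DMS (SD, n = 2 each). All 4 biotin variation libraries lay below all standard libraries, and the standard +DMS libraries lay below all untreated libraries outside the biotin variation, which ran from 324 to 511 CPM. PRR37, known in rice as a regulator of heading date, had 19 and 15 counts in biotin variation +DMS and 0 and 6 in biotin variation -DMS. It had 33 and 98 counts in standard +DMS and 29 and 82 in standard -DMS. Here the biotin variation again lay lowest, at 0 to 50.3 CPM, while standard +DMS (88.4 and 122 CPM) overlapped standard -DMS (111 and 152 CPM).

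PRR95 and PRR59, regulators of the middle of the day, also had their lowest levels in the biotin variation. PRR95 had 24 and 35 counts in biotin variation +DMS and 5 and 19 in biotin variation -DMS. Its counts were 113 and 154 in standard +DMS, and 133 and 395 in standard -DMS. The mean levels were 87.3 ± 42.4 CPM in biotin variation +DMS, 61.1 ± 11.1 in biotin variation -DMS, 247 ± 78.3 in standard +DMS and 621 ± 160 in standard -DMS (SD, n = 2 each). No group of the biotin variation reached the standard libraries, and standard +DMS (303 and 192 CPM) stayed below the 449 to 768 CPM of the 7 untreated libraries outside the biotin variation. PRR59 had 5 and 4 counts in biotin variation +DMS, 0 and 8 in biotin variation -DMS, 21 and 38 in standard +DMS, and 18 and 68 in standard -DMS. Its levels were 0 to 29.0 CPM in the biotin variation, 56.2 and 47.4 CPM in standard +DMS and 68.8 and 126 CPM in standard -DMS, with no overlap between these 3 groups. PRR37 and PRR73, and likewise PRR95 and PRR59, are close relatives, and reads shared within such a pair could have been counted for either.

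The dusk genes PRR1 and GI had the smallest fitted changes between the protocols. PRR1, which represses LHY in the evening, had 44 and 33 counts in biotin variation +DMS, 0 and 35 in biotin variation -DMS, 73 and 178 in standard +DMS, and 37 and 130 in standard -DMS. Its mean of 209 ± 18.7 CPM in standard +DMS lay within the range of standard -DMS, 192 ± 70.8 CPM (SD, n = 2 each). In the biotin variation it was at 105 and 111 CPM +DMS and at 0 and 127 CPM -DMS, below the 141 CPM of the lowest standard library. GI, a large plant-specific protein of the clock and of flowering, was the clock gene with the most counts. It had 405 and 215 counts in biotin variation +DMS, 59 and 191 in biotin variation -DMS, 480 and 1228 in standard +DMS, and 249 and 574 in standard -DMS. Its level averaged 844 ± 175 CPM in biotin variation +DMS, 661 ± 45.5 in biotin variation -DMS, 1408 ± 173 in standard +DMS and 1010 ± 81.2 in standard -DMS (SD, n = 2 each). Both standard +DMS libraries (1286 and 1531 CPM) lay above the 7 untreated libraries outside the biotin variation (860 to 1284 CPM), although the lower of them exceeded Ex Taq by little. FKF1, a blue-light receptor of the F-box family that peaks late in the day, did not go with the other dusk genes. It had 7 and 5 counts in biotin variation +DMS, 0 and 1 in biotin variation -DMS, 21 and 56 in standard +DMS, and 33 and 124 in standard -DMS. These counts correspond to 16.7 ± 0.0248 CPM in biotin variation +DMS, 1.81 ± 2.56 in biotin variation -DMS, 63.0 ± 9.60 in standard +DMS and 178 ± 73.8 in standard -DMS (SD, n = 2 each). The biotin variation, standard +DMS and standard -DMS did not overlap for FKF1.

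The ELF3 loci were too low to follow closely. ELF3-1, also known in rice as a heading date gene, had 2 and 2 counts in biotin variation +DMS, 7 and 0 in biotin variation -DMS, 19 and 34 in standard +DMS and 6 and 24 in standard -DMS. The groups overlapped. The standard libraries had 50.9 and 42.4 CPM in +DMS and 22.9 and 44.6 CPM in -DMS, and the shallow biotin variation library with its 7 counts was at 74.6 CPM. ELF3-2 had 60 counts in all 13 libraries, with 0 to 13 in each, and was not tested.

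The biotin variation was compared with the standard protocol in a fit of the 8 replicated libraries with DMS as a second term. LHY, PRR73, PRR95 and FKF1 were called lower in the biotin variation, 4 of the 9 clock loci tested, and 0 were called higher. LHY, FKF1, PRR59 and ELF3-1 passed the filter of this fit only through standard libraries, also with single libraries left out. That favours a lower value in the biotin variation. The numbers of clock loci lower and the median change over them, here and below, are therefore a description only. PRR73, PRR95, PRR37, PRR1 and GI would have passed on the biotin variation libraries alone. Of the 9737 loci tested, 6.26% were called lower and 0.791% higher. The log2 change was -2.48 for PRR73 (SE 0.55, adjusted p = 0.0194), -2.45 for PRR95 (SE 0.55, adjusted p = 0.0194) and -3.31 for FKF1 (SE 0.83, adjusted p = 0.0203). For LHY the adjusted p was 0.00958, and its fitted change of -7.65 (SE 1.43) rests on the prior count, since the biotin variation is at 0, and the bound given above applies. The other loci were at -2.28 for PRR59 (adjusted p = 0.0643), -2.08 for PRR37 (adjusted p = 0.0680), -1.64 for ELF3-1 (adjusted p = 0.303), -1.25 for PRR1 (adjusted p = 0.198) and -0.77 for GI (adjusted p = 0.170). The median over the 9 clock loci was -2.28 and that over all loci tested -0.64. All 9 lay below the median of all loci, GI by the smallest margin. Counted without any model, 7 of the 9 loci were lower in all 4 biotin variation libraries than in all 4 standard libraries, where 18.7% of all loci tested were. GI and ELF3-1 overlapped.

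The number of calls changed when single libraries were left out. Without the biotin variation -DMS, replicate 1, 7 of the 9 loci were called lower, where 10.9% of loci were. The adjusted p was then 0.00442 for LHY, 0.00346 for PRR73, 0.00936 for PRR95, 0.0146 for FKF1, 0.0291 for PRR37, 0.0263 for PRR59 and 0.0182 for ELF3-1. For ELF3-1 the library left out was the only one of the biotin variation with more than 2 counts. It had 7 counts and the highest level of ELF3-1, 74.6 CPM. Without the standard -DMS replicate 2, 0 of the 8 clock loci still tested were called, where 0.956% of loci were in either direction (PRR73 adjusted p = 0.0547, PRR95 0.0603, FKF1 0.0959, edgeR), and LHY no longer passed the filter. Without the standard -DMS replicate 1, 1.61% of loci were called, LHY did not pass the filter either and FKF1 was not called (adjusted p = 0.0593). FKF1 also missed the threshold without the standard +DMS replicate 2 (adjusted p = 0.0567) and without the biotin variation -DMS replicate 2 (adjusted p = 0.0508).

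**Figure D2:**
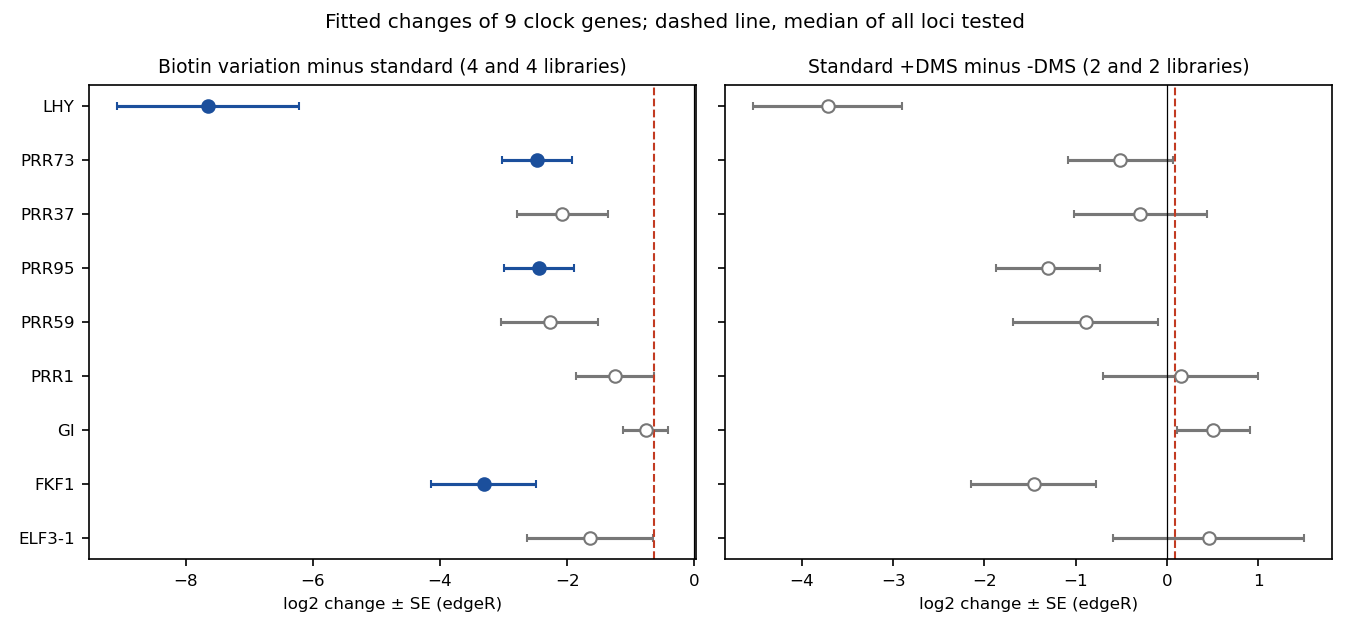
Fitted log2 change with its SE (x axis) of the 9 clock loci tested (y axis), for the biotin variation minus the standard protocol (left) and for standard +DMS minus standard -DMS (right). Filled points were called at an adjusted p below 0.05 and the dashed line is the median of all loci tested, -0.64 on the left and 0.10 on the right. On the left all 9 points lie below the dashed line, and on the right LHY stands lowest at -3.72.

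Among the clock loci, the effect of DMS within the standard protocol was largest for LHY. LHY passed the filter of this fit only through the standard -DMS libraries, where it was high. That favours a lower value with DMS, so the rank of LHY is a description only. Its log2 change was -3.72 (SE 0.82, adjusted p = 0.405 by edgeR), and 0 of the 9 clock loci were called. In that contrast 0% of the 9737 loci were called by edgeR, 396 had an unadjusted p under 0.05, and DESeq2 called 77. By DESeq2 LHY had an adjusted p of 0.00175. In edgeR it was called when either biotin variation -DMS library was left out of the shared fit, with adjusted p = 0.00237 without replicate 1 and 0.00217 without replicate 2, and not in the fit of all 8 libraries or without any other library that left it tested. PRR95 was at -1.30 (SE 0.57) and FKF1 at -1.46 (SE 0.68), neither called. GI was at 0.51 (SE 0.40) and PRR1 at 0.16 (SE 0.85), neither called. By levels alone, LHY, PRR73, PRR95, PRR59 and FKF1 were lower in both +DMS libraries than in both -DMS libraries, 5 of 9 where 22.8% of all loci tested were, and GI was higher, where 28.6% were. Against all 7 untreated libraries outside the biotin variation, the 2 standard +DMS libraries were lower for LHY, PRR73, PRR95 and FKF1 (4 of 9, against 8.15% of 11012 loci) and higher for GI (1 of 9, against 11.7%).

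In the biotin variation, 0 of the 9 clock loci were lower in both +DMS libraries than in both -DMS libraries, where 5.86% of all loci tested were. LHY was at 0 in all 4. PRR37, PRR73, GI and FKF1 were higher in both +DMS than in both -DMS libraries, 4 of 9 where 37.8% of all loci were. That contrast includes the shallow library, and edgeR called 0 of 9 clock loci and 0% of all loci (2434 with an unadjusted p under 0.05; DESeq2 called 402). The difference of the DMS effect between the protocols was tested as an interaction. It was 4.11 for FKF1 (SE 1.41, adjusted p = 0.254) and -0.01 for GI (SE 0.57, not called), and 0% of loci were called (1566 with an unadjusted p under 0.05; DESeq2 called 64). For LHY it could not be fitted with a usable error, since the biotin variation had 0 counts. With DMS as a common term in both protocols, LHY was at -3.60 (SE 1.04, adjusted p = 0.257), 0 of 9 clock loci were called and 0.0616% of all loci were (837 loci with an unadjusted p under 0.05; DESeq2 called 231 loci).

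Over all 9 kinds read with both primers, edgeR called a difference for LHY (adjusted p = 0.0378), 1 of 9 clock loci, against 0.227% of the 11012 loci tested. LHY passed the filter of this fit only through the 7 untreated libraries outside the biotin variation, where it was high. FKF1, PRR59 and ELF3-1 again passed without any biotin variation library. That favours a difference between kinds, so the call of LHY and the numbers of calls here are a description only. PRR95 (adjusted p = 0.102), FKF1 (0.111), PRR73 (0.163), GI (0.746) and PRR1 (0.925) were not called. The call of LHY was lost when any 1 of the standard libraries or of the biotin variation +DMS libraries was left out (adjusted p = 0.0894 to 0.367), and with a minimum of 50 counts (adjusted p = 0.0826). Without the biotin variation -DMS replicate 1, the shallow library, 7 of the 9 loci were called, all but GI and PRR1, where 19.3% of loci were. Without its replicate 2, 7 of 9 were also called, all but GI and ELF3-1, where 20.2% of loci were, and PRR1 then had an adjusted p of 0.0214 by edgeR.

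**Figure D3:**
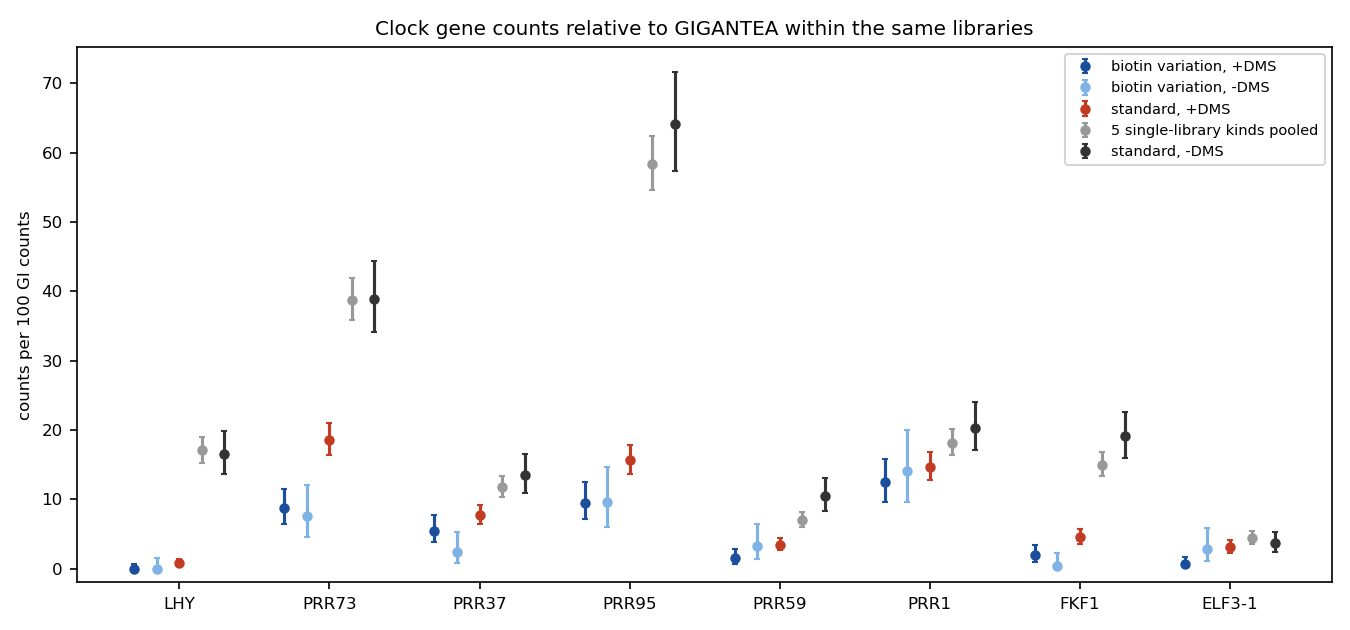
Counts of each clock gene per 100 counts of GI in the same libraries (y axis), pooled by group, for 8 clock genes (x axis). Points are pooled ratios and bars 95% exact intervals that cover counting error only. LHY, PRR73, PRR37, PRR95, PRR59 and FKF1 lie lowest in the biotin variation, between in standard +DMS and highest in the untreated PAGE libraries. PRR1 has the same order over a smaller range. It is at 12.4 in biotin variation +DMS, 14.0 in biotin variation -DMS, 14.7 in standard +DMS and 20.3 in standard -DMS.

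A ratio of counts within a library does not depend on how libraries are scaled. Each clock gene was therefore set against GI, the dusk gene with the most counts, by a choice made after the levels were seen. For each 100 GI counts there were 0 LHY counts in the biotin variation (allowing up to 0.484 in +DMS and 1.20 in -DMS libraries), 1.04 and 0.733 in the standard +DMS replicates, and 11.7 to 21.4 in the 7 untreated libraries outside the biotin variation. The morning regulator PRR73 had 7.65 and 10.7 in biotin variation +DMS, 3.39 and 8.90 in biotin variation -DMS, 19.4 and 18.2 in standard +DMS, and 32.8 to 48.2 in those 7 libraries. PRR95 had 5.93 and 16.3 in biotin variation +DMS, 8.47 and 9.95 in biotin variation -DMS, 23.5 and 12.5 in standard +DMS, and 44.1 to 69.5 in the 7 libraries. For these genes the biotin variation and standard +DMS each lay wholly below the untreated libraries. FKF1 did so too, with 1.73 and 2.33 in biotin variation +DMS, 0 and 0.524 in biotin variation -DMS, 4.38 and 4.56 in standard +DMS, and 11.7 to 21.6 in the 7 libraries. PRR1 was the exception among the well-counted genes. It had 10.9 and 15.3 in biotin variation +DMS, 0 and 18.3 in biotin variation -DMS, 15.2 and 14.5 in standard +DMS, and 14.9 to 29.2 in the 7 libraries, so that the groups overlapped. On this scale LHY, PRR73, PRR37, PRR95, PRR59 and FKF1 were lower without overlap in standard +DMS (6 of the 8 loci compared, against 18% of 11011 loci) and in the biotin variation (6 of 8, against 12.1%). GI itself was higher without overlap in standard +DMS in CPM, which lowers every ratio to it there. In CPM, PRR37 and PRR59 overlapped between standard +DMS and the 7 libraries, so that only LHY, PRR73, PRR95 and FKF1 were lower without overlap on both scales. Both comparisons share the same 7 libraries.

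LHY was also taken as a share of the summed counts of LHY, PRR1, GI and FKF1. This dawn share was 0 of 995 counts in the biotin variation, which allows a share of up to 0.302%. It was 0.683% in standard +DMS (14 of 2050 counts, 95% Clopper-Pearson interval 0.374% to 1.14%) and 10.6% in standard -DMS (136 of 1283 counts, 8.97% to 12.4%). Among the 6 single libraries it was lowest in biotin only, at 8.06%, and in agarose, at 9.96%. It was 11.6% in Ex Taq, 12.99% in low RT denaturation, 13.5% in low RT reaction and 13.7% in Circligase. Every untreated library made with PAGE thus lay between 8.06% and 13.7%, above standard +DMS and the biotin variation. The biotin variation was not separated from standard +DMS kind by kind, since its 0 counts allow up to 0.423% in +DMS and 1.05% in -DMS libraries. The readings sample the same cDNA, with no sign in the labels of molecular identifiers, so these intervals cover counting error only. With the labels giving no hour, plant or extraction for a library, the hour of sampling and the kind of library cannot be told apart.

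**Figure D4:**
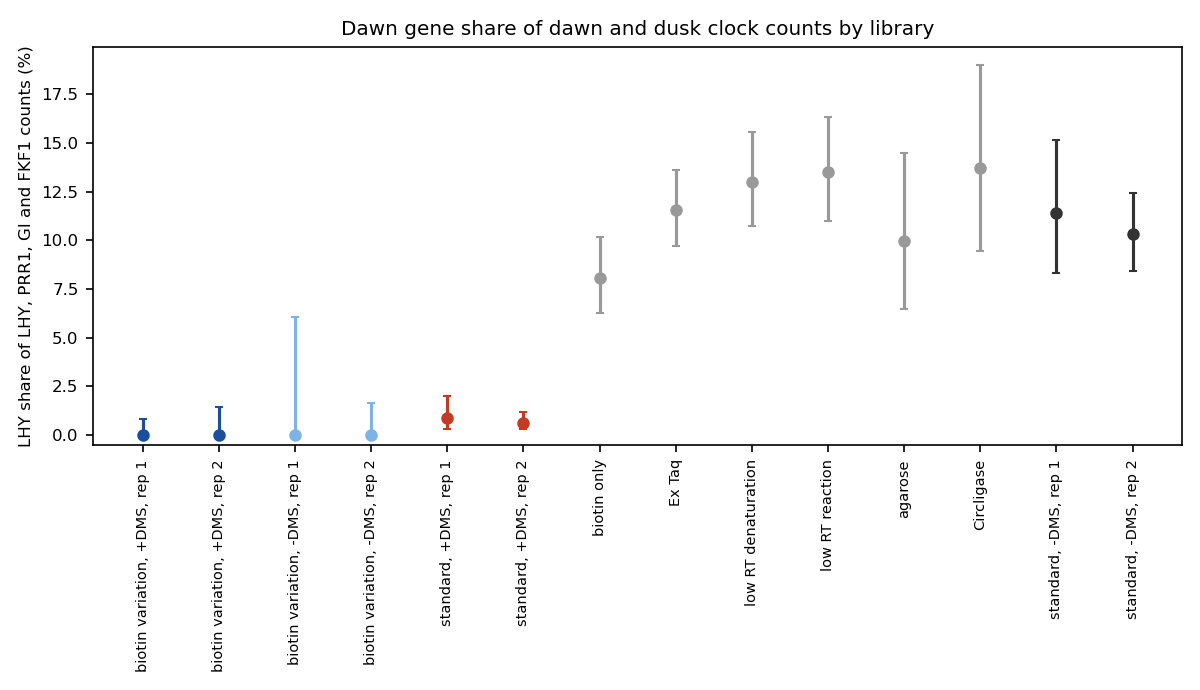
Share of LHY in the summed counts of LHY, PRR1, GI and FKF1 (y axis, percent) in each of 14 libraries (x axis). Points are libraries and bars 95% Clopper-Pearson intervals for counting error. The 4 biotin variation libraries are at 0, the standard +DMS libraries at 0.864% and 0.612%, and the 8 other libraries between 8.06% and 13.7%.

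Some clock genes differed between the readings with the custom and the standard sequencing primer. With the custom primer PRR73 (log2 change -0.73, adjusted p = 9.45e-07) and GI (-0.36, adjusted p = 9.76e-05) were lower than with the standard primer, and PRR1 (0.43, adjusted p = 0.00671) and PRR59 (0.63, adjusted p = 0.0117) were higher, by edgeR with library as a block. These 4 of 9 loci stand against 39.9% of 8897 loci called. Single libraries could go the other way, as in the shallow library, where GI had 34 counts with the custom and 25 with the standard primer. For LHY the change was 0.08 (SE 0.18, adjusted p = 0.738), and its sign turned under other scaling. Both readings gave LHY at 0 counts in all 4 biotin variation libraries.

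A set of 16 other genes of the clock and of photoperiodic flowering was followed beside the 10. Of these 8 passed the filter, and in the biotin variation, set against the standard protocol, 2 were called lower and 0 higher, with a median log2 change of -2.002. Over all loci tested these shares were 6.26% lower and 0.791% higher, and the median was -0.64. LUX, the DNA-binding MYB factor of the evening complex, was at -2.12 (adjusted p = 0.0320), and Hd16, a casein kinase that delays rice flowering, at -4.58 (adjusted p = 0.0239). Both calls were lost without either standard -DMS library (adjusted p = 0.0643 to 0.0959) or without either standard +DMS library (adjusted p = 0.0594 to 0.0981). LUX was also lost without either biotin variation +DMS library (adjusted p = 0.0636 and 0.0987), with a minimum of 50 counts (adjusted p = 0.0624) and with the standard-primer readings alone (adjusted p = 0.0511). LUX had 88.4 and 83.8 CPM in biotin variation +DMS and 0 and 105 in biotin variation -DMS. In the standard protocol it had 402 and 438 CPM +DMS, and 184 and 234 -DMS. The standard +DMS libraries were thus the highest for LUX, as they were for GI, although LUX was not called for DMS (log2 change 1.03, SE 0.79). Hd16 had 1 count in the 4 biotin variation libraries and 52 in the 4 standard libraries. Hd16 thus passed the filter only through standard libraries. ZTL2, MADS51 and DTH8 also would not have passed on the biotin variation libraries alone. That favours a lower value in the biotin variation, so the number of calls and the median of these genes are a description only. ZTL1, ZTL2, COP1, MADS50 and MADS51 were at log2 changes of -2.62 to -1.12 and DTH8 at 0.39, none called. The floral regulators Ehd1 and Hd3a (Hd3a is a florigen) had 0 counts in all 13 libraries, and Hd1, Ehd2, Ghd7, ELF4a and Hd6 stayed below the filter.

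The light-harvesting loci of the shoot markers, like LHY, were lower in the biotin variation and in standard +DMS than in all 7 untreated libraries outside the biotin variation. OS01T0600900 had 522 to 1730 CPM in the biotin variation, 1827 and 770 in standard +DMS and 8729 to 21523 in the 7 other untreated libraries. OS09T0346500 had 213 to 849 CPM in the biotin variation, 477 and 249 in standard +DMS and 3288 to 7906 in those 7 libraries. Both were called over the 9 kinds (adjusted p = 0.00946 and 0.0261, edgeR). Among the +DMS libraries, OS01T0600900 in the biotin variation was 1.05-fold and OS09T0346500 1.76-fold the standard level in pooled CPM. LHY had 0 counts in biotin variation +DMS and 14 in standard +DMS, and its share did not separate these kinds. Whether the light-harvesting loci followed LHY there thus cannot be told. The Rubisco small subunit loci went the other way. OS12T0274700 had 28793 to 60828 CPM in the biotin variation, 23822 and 27222 in standard +DMS and 10954 to 19605 in the 7 libraries, without overlap. The other small subunit loci were also higher without overlap in standard +DMS than in the 7 libraries, and 1 of them in the biotin variation, while Rubisco activase overlapped in both comparisons. Of the 11012 loci tested, 8.15% were lower and 11.7% higher without overlap in standard +DMS than in the 7 libraries. In the biotin variation 16.5% were lower and 2.5% higher. The part of these loci in the result for LHY was not tested.

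The loci most like GI across the 13 libraries were sought among 212 loci with a mean count of at least 0.5 times its own. By Pearson's r of log2(CPM + 1) they were OS02T0553200 (r = 0.896), OS04T0656100 (r = 0.883) and OS07T0108300 (r = 0.880). These r values describe 13 points that share library composition and depth.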

How the data were processed

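Structure-seq2 libraries of rice shoots were sequenced on a MiSeq, per the labels, and cutadapt and Bowtie2 are named in the submitters' processing notes; no version, genome build or counting rule is named there. The deposited values are whole-number counts per transcript, with 1 table for each sequencing primer and 0 columns outside the labelled samples. The 27 samples are 14 libraries of 10 kinds, taken from the labels.

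From these counts, transcripts were summed per locus (identifier before the dash) and both primer readings per library. Loci reaching 10 counts in 2 or more libraries of a fit entered the quasi-likelihood test of edgeR 4.0.16 (R 4.3.3), with TMM scaling and Benjamini-Hochberg adjusted p-values called below 0.05, with DESeq2 1.42.0 as an alternative. SE is the log2 change over the square root of F. A group at 0 was given a bound from 3 counts. Intervals are 95% exact binomial. Gene names come from knowledge of RAP loci, not from the files. The rule for named genes took all 10 members, 16 related genes, of which 1 is not reported here, and the 3 loci most like the member with most counts. The scripts were tested on simulated data. Replicate numbers were not used to pair the samples in the main fits. The members, lists and tests were chosen with earlier results of these data known.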

Additional observations from a re-analysis of the deposited data

How the results depend on the processing

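Depth limits these results: 3 counts were worth 3.74 to 32.0 CPM, and the replicated groups hold 2 libraries each. Over the single genes, 456 of 525 alternative values kept their side of the threshold and their sign, 40 gained a call, 25 lost one and 4 turned sign. Those 4 were the uncalled primer change of LHY (-0.029 with RLE size factors, -0.0044 with DESeq2, and, leaving out 1 library, -0.061 to 0.064). The calls of LHY, PRR73 and PRR95 in the biotin variation held under RLE size factors, library totals, no filter, DESeq2, either reading alone, the transcript with most counts and the replicate block. With at least 50 counts LHY was not tested. Numbers of calls over all loci moved as follows, and the cause was not tested.

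For the biotin variation against the standard protocol there were 687 calls in the main analysis, 1054 without a filter, 146 with at least 50 counts, 1804 with DESeq2 and 351 with standard-primer readings alone. Leaving out 1 library gave 84 to 1545 calls. For DMS in both protocols, 6 calls became 15 with RLE size factors, 23 with library totals, 51 without a filter, 0 with at least 50 counts (356 loci with an unadjusted p under 0.05), 231 with DESeq2, 1 with the standard primer, 54 with the custom primer and 12 with 1 transcript per locus, and 0 to 112 without 1 library. For DMS in the standard protocol, 0 calls became 7 with RLE size factors, 10 with library totals, 26 without a filter, 77 with DESeq2, 2 and 20 with the standard and the custom primer alone, and 0 to 297 without 1 library. For DMS in the biotin variation, 0 calls became 330 without a filter, 402 with DESeq2, 8 and 6 with the standard and the custom primer alone, and 0 to 2359 without 1 library. For the difference between protocols, 0 calls became 1 with library totals, 29 without a filter, 64 with DESeq2, 3 with the custom primer and 0 to 1539 without 1 library. Over all kinds, 25 calls became 82 with RLE size factors, 132 with library totals, 977 without a filter, 0 with at least 50 counts (609 loci with an unadjusted p under 0.05), 1072 with DESeq2, 38 and 483 with the standard and the custom primer alone, 52 with 1 transcript per locus and 0 to 2174 without 1 library. For the primer, 3549 calls became 1388 with at least 50 counts. With library totals 63.4% of the primer calls were higher with the custom primer, against 50.7% with TMM factors. In the biotin variation the share of higher calls was 22.3% with library totals and 11.2% with TMM factors.

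Deviations of replicates of the same number had r of -0.03 to 0.14 over 6 pairs of groups, 1 above 0.1. That pair was standard -DMS with standard +DMS (r = 0.14 over 9737 loci), a weak pairing that the main fits did not model. The replicate block is a check only. With the replicate block there were 476 calls for the biotin variation, 9 for DMS in both protocols, 0 for DMS in either protocol alone and for their difference, and 33 over all kinds. Under the block 4 of 9 clock loci were called in the biotin variation and 1 of 9 over all kinds. A fit of 13 libraries with a mean for each kind, chosen after seeing the data, called 0 loci for DMS in either protocol and for their difference (474, 2516 and 1635 with an unadjusted p under 0.05).

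The dawn share changed with its genes. With LHY, PRR73 and PRR37 against PRR1, GI and FKF1 it was 11.0% in biotin variation +DMS, 8.04% in biotin variation -DMS, 18.5% in standard +DMS, 30.9% in biotin only, 31.1% in Ex Taq, 41.7% in Circligase, 37.4% in low RT denaturation, 36.5% in low RT reaction, 33.0% in agarose and 33.1% in standard -DMS. With LHY against PRR1 alone it was 0% in the biotin variation, 5.28% in standard +DMS, 37.6% in biotin only, 51.7% in Ex Taq, 61.2% in Circligase, 55.4% in low RT denaturation, 52.6% in low RT reaction, 34.8% in agarose and 44.9% in standard -DMS. In standard -DMS it was 7.83% with the standard primer alone and 13.03% with the custom primer alone.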

Other observations

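The counts of the clock loci were spread over their listed transcripts. Over 13 libraries LHY had 68.0% of its 556 counts on transcript 01, 18.9% on 02 and 13.1% on 03. GI had 48.9% and 51.1% of its 5785 counts on its 2 transcripts, and PRR95 had 52.5% and 47.5% of 2270. PRR73 had 56.3%, 33.0% and 10.8% of 1635 counts on 3 transcripts, and FKF1 74.5% and 25.5% of 604 on 2. How reads that match several transcripts of a locus were assigned is not given in the sources used here, and sums per locus were used for that reason.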
